A study of Mus musculus with 6 samples.

Results

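The subunits and inhibitors of NF-kB were compared at the RNA level between 230-238 mouse B-lineage cells with and without added FOG1. The set comprises 10 genes: the Rel-domain subunits Nfkb1, Nfkb2, Rel, Rela and Relb, the IkB proteins Nfkbia, Nfkbib, Nfkbie and Nfkbiz, and the ubiquitin-editing enzyme Tnfaip3. Members were taken as probe sets whose platform annotation gave exactly 1 symbol, that of a member. This found 9 of the 10, with 1 probe set each, among 19937 genes named in this way. Nfkb1 was not analysed here.

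The 6 arrays fall into 2 groups of 3. In the control group (GFP), 230-238 cells were infected with a plasmid for green fluorescent protein, and in the other (GFP+FOG1) with a plasmid for that protein together with FOG1, the cofactor of GATA transcription factors that the gene Zfpm1 encodes. Both groups were grown for 3 days in RPMI1640 medium, sorted for green fluorescence and grown for 4 further days before RNA was isolated. Both groups thus went through infection and sorting, and all samples come from a single cell line. The labels call the samples biological replicates without saying whether each came from an infection of its own, and the p-values here cover no more than the differences between these 3 samples of a group, which may be technical. The contrast asks which transcripts differ when this B-lineage cell line is given FOG1.

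NF-kB factors are dimers of Rel-domain proteins. Rela, Rel and Relb carry activation domains, while Nfkb1 and Nfkb2 are made as precursors whose processed forms lack one. In resting cells IkB proteins hold the dimers in the cytoplasm. Signals from the B-cell receptor, Toll-like receptors or the tumour necrosis factor receptor family activate the IkB kinases, the IkB protein is degraded and the dimer enters the nucleus. Several genes of the system are themselves NF-kB targets, which makes a feedback loop, and in B cells the pathway is known for its part in survival, maturation and the response to antigen. The arrays measure RNA and hold no information on IkB degradation or on where the dimers are in the cell.

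Several members carry the NF-kB motif upstream of their own start. RefSeq gave promoter sequence (build GRCm38.p6) for 7 of the 9 measured members, and the 250 bases before each annotated start were searched on both strands for the NF-kB consensus motif, which has 10 letters. At least 1 match was found for 5 of the 7 members (71.4%), namely Nfkb2, Rel, Nfkbia, Nfkbie and Tnfaip3, and none for Rela or Nfkbib. Of all 27025 genes with such a window, 1204 (4.46%) held a match. The last 130 bases before the start are shown for these 5 members, because they hold most of the matches, with Rela for comparison. Each runs 5′ to 3′ along the gene's own strand, with matches in capitals, and overlapping matches run together.
Nfkb2, chr19:46304607-46304736, plus strand: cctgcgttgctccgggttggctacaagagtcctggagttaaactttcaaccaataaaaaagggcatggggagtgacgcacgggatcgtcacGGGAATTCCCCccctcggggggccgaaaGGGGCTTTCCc
Rel, chr11:23770970-23771099, minus strand: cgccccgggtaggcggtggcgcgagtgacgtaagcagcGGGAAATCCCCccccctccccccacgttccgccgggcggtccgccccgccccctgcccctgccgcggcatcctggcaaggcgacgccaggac
Nfkbia, chr12:55492648-55492777, minus strand: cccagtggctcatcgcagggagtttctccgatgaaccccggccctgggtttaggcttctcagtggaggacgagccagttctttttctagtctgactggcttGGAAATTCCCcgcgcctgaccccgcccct
Nfkbie, chr17:45555570-45555699, plus strand: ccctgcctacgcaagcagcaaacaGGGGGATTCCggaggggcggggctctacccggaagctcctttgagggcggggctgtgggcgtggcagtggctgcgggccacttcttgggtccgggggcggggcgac
Tnfaip3, chr10:19015411-19015540, minus strand: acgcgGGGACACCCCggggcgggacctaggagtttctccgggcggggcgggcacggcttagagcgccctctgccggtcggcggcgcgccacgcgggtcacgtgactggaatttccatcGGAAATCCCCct
Rela, chr19:5637411-5637540, plus strand: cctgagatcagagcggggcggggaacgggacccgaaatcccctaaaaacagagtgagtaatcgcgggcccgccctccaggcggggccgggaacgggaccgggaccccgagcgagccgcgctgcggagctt
Nfkbia has a match from 29 to 20 bases before the start, which on the opposite strand reads GGGAATTTCC. Nfkb2 has a palindromic match, GGGAATTCCC, from 39 to 30 bases before its first annotated start, overlapped by another, and GGGGCTTTCC from 11 to 2 bases before it. The matches of Rel overlap between 92 and 82 bases before the start, and Nfkbie holds GGGGGATTCC at 106 to 97 bases. Tnfaip3 has matches at 125 to 116 and at 12 to 3 bases before its first start. Nfkb2 has 3 annotated starts, each with at least 1 match, and Tnfaip3 has 2, of which the second has none. A match describes the letters and does not show that a factor binds there.

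**Figure D1:**
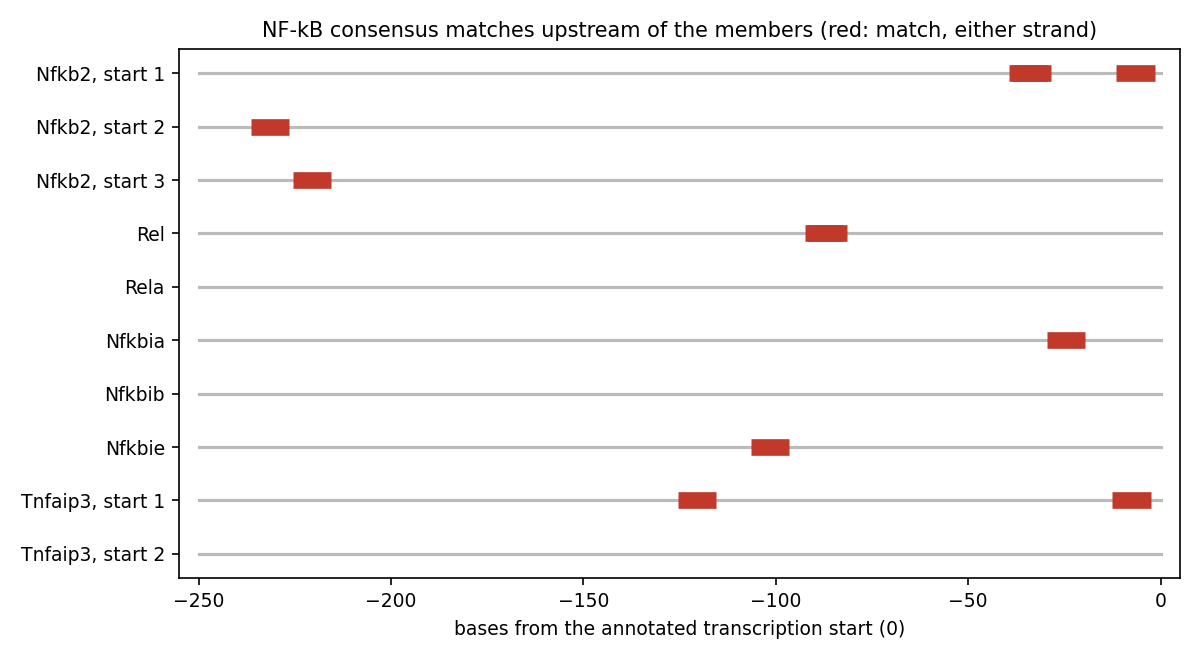
Positions of NF-kB consensus matches (red, either strand) in the 250 bases before each annotated start of the 7 members with a RefSeq promoter window; the horizontal axis is the distance in bases from the start, and genes with several starts have a line for each. Matches lie within 39 bases of a start in Nfkb2, Nfkbia and Tnfaip3, and Rela and Nfkbib have none.

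The values are log2 signals of probe sets, so a difference of 1 is a 2-fold change. The overall median was 7.00 and array medians lay between 6.98 and 7.04. Zfpm1 read 9.41, 9.49 and 9.43 on the GFP arrays and 10.21, 10.16 and 10.17 on the GFP+FOG1 arrays, a log2 change of 0.74 (limma, Benjamini-Hochberg adjusted p = 0.0038), so each array went with its label. The GFP arrays too had a Zfpm1 signal above the median level, so with and without FOG1 below mean with and without added FOG1. All 11 measured B-lineage markers lay at or above the median level, among them Cd24a, Igll1 and Cd79b, and their mean was 11.87 to 11.91 on GFP and 11.77 to 11.84 on GFP+FOG1 arrays. Some genes listed as markers of other cells also reached that level. They were 2 of 8 for T and NK cells (Cd2 and Cd3e) and 1 of 9 for myeloid cells (Itgam). For erythroid cells and megakaryocytes they were 2 of 6 (Itga2b and Ermap), and for fibroblasts and endothelium 3 of 6 (Col1a1, Pecam1 and Col1a2). A listed gene at that level does not by itself show that such cells were present. Cd2 had a mean level of 11.06, where Cd3d, Cd3g and Cd4 had 5.23, 5.13 and 5.87. Itgam was the only marker called, with a log2 change of -1.11 (limma adjusted p = 0.0075). That call was lost without GFP replicate 1 or 3 or GFP+FOG1 replicate 2 (adjusted p of 0.054 to 0.066). Col1a1 varied within the GFP+FOG1 group, at 9.90, 9.61 and 8.99, against 9.53, 9.73 and 9.70 on the GFP arrays. In such bulk RNA, fewer cells of a type and less RNA per cell cannot be told apart.

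None of the 9 members was called in GFP+FOG1 cells, and all 9 had a signal at or above the median level. By limma at a Benjamini-Hochberg adjusted p under 0.05 over all 34760 probe sets, 0 of 9 passed, and 1 of 9 (Nfkb2) had an unadjusted p under 0.05. Of all probe sets, 78 were called (0.224%) and 12.5% had an unadjusted p under 0.05, so both counts are near the background. The log2 changes of the members ran from -0.17 (Nfkbiz) to 0.03 (Nfkbie), with 5 below and 4 above 0. Their median was -0.03, against -0.01 over all probe sets. No member moved by more than 0.2 log2 units in either direction. Of the 10582 genes at or above the median level 7.47% moved by more than that, so 0 of 9 is near that share as well.

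The precision allows small bounds on the change between these samples. The spread behind the bounds may be technical, so they need not hold for FOG1 in new infections. Taking the 95% intervals of all 9 members together, each for its gene alone, the largest fall that any interval holds is 1.32-fold (Nfkbiz) and the largest rise 1.10-fold (Nfkbib and Nfkbie). The standard errors of the log2 changes were 0.041 to 0.095. For comparison, the interval of Zfpm1 ran from 1.55-fold to 1.80-fold higher. A change of RNA shared by most genes would not be seen here if the authors' processing forced the arrays to the same distribution, so these bounds are relative to the other probe sets.

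**Figure D2:**
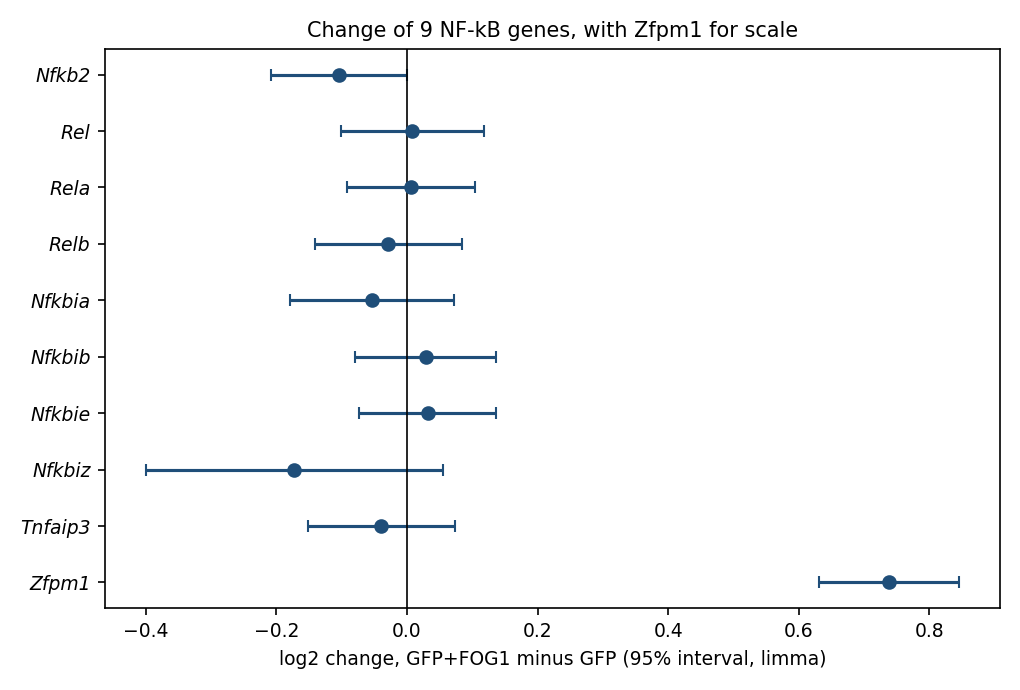
Log2 change (GFP+FOG1 minus GFP) of the 9 measured members and of Zfpm1, with 95% intervals from limma (3 arrays per group); the line marks no change. The intervals of 8 members hold 0, that of Nfkb2 ends just below it, and that of Zfpm1 lies far to the right, from 0.63 to 0.85.

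Among the Rel-domain subunits, Nfkb2 had the largest difference, which did not pass, and those of the 3 activating subunits were at most 0.03 log2 units in size. Nfkb2, whose processed form partners Relb in the noncanonical pathway, read 9.01, 9.01 and 8.97 on the GFP arrays and 8.92, 8.89 and 8.86 on the GFP+FOG1 arrays. It was the only member whose groups did not overlap, which held for 19.6% of all probe sets. The difference was -0.10 on the log2 scale (SE 0.043, 95% interval -0.21 to -0.00058), or 1.07-fold lower, with a limma p of 0.049 unadjusted and 0.40 adjusted.

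Relb, the partner of Nfkb2, read 8.33, 8.41 and 8.37 without FOG1 and 8.31, 8.33 and 8.38 with it. The groups overlapped, and the log2 change was -0.03 (95% interval -0.14 to 0.08). The largest fall this interval holds is 1.10-fold.

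Rel, the subunit of lymphoid cells named after the avian oncogene, read 11.66, 11.63 and 11.60 on the GFP arrays and 11.62, 11.68 and 11.61 on the GFP+FOG1 arrays. Its log2 change was 0.01 (95% interval -0.10 to 0.12). Rela, the broadly expressed activating subunit, read 10.46, 10.50 and 10.46 against 10.49, 10.48 and 10.47, a log2 change of 0.01 (95% interval -0.09 to 0.10). In both genes the GFP+FOG1 values lay among or beside the GFP values, and the sign of the change was not stable. Quantile normalization turned it to -0.01 for Rel and -0.02 for Rela.

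Of the IkB proteins, the classical cytoplasmic inhibitors Nfkbia, Nfkbib and Nfkbie did not pass the test, and their groups overlapped. Nfkbia encodes IkB alpha, the inhibitor that is degraded and made again within each round of signalling, from the promoter printed above. It read 10.06, 10.10 and 10.04 on the GFP arrays and 10.10, 9.96 and 9.99 on the GFP+FOG1 arrays. GFP+FOG1 replicate 1 lay among the controls and the other two lay below them. The difference was -0.05 on the log2 scale (SE 0.052; adjusted p = 0.69 by limma), with a 95% interval of -0.18 to 0.07.

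Nfkbib encodes IkB beta and read 10.87, 10.95 and 10.90 without FOG1 and 10.96, 10.91 and 10.93 with it (log2 change 0.03, 95% interval -0.08 to 0.14). Nfkbie encodes IkB epsilon and read 9.25, 9.33 and 9.28 against 9.32, 9.31 and 9.33 (log2 change 0.03, 95% interval -0.07 to 0.14). For both, the GFP+FOG1 arrays lay close together within or near the upper part of the GFP range.

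Nfkbiz encodes IkB zeta, a nuclear member of the family that is itself induced by Toll-like receptor signals and acts as a coactivator as well as an inhibitor. It varied most of the 9 genes. It read 8.50, 8.70 and 8.57 on the GFP arrays and 8.57, 8.43 and 8.26 on the GFP+FOG1 arrays, so the groups overlapped through GFP+FOG1 replicate 1. The mean was 8.59 ± 0.10 against 8.42 ± 0.16 (SD, n = 3 per group), a difference of -0.17 on the log2 scale (SE 0.095; adjusted p = 0.49 by limma). The 95% interval, -0.40 to 0.06, was the widest of the 9. Over GFP+FOG1 replicates 1, 2 and 3 the listed fibroblast genes Col1a1 (9.90, 9.61 and 8.99) and Col1a2 (9.55, 9.21 and 8.71) fell in the same order. Pdgfra did so too, while Dcn, Pecam1 and Cdh5 of the same marker list did not. Whether the spread of Nfkbiz is tied to that of these genes was not tested.

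Tnfaip3, which removes activating ubiquitin chains upstream of the IkB kinases and is strongly induced by NF-kB, read 8.86, 8.87 and 8.78 without FOG1. With FOG1 it read 8.82, 8.78 and 8.79, inside the control range. The log2 change was -0.04 (95% interval -0.15 to 0.07). Its promoter carries 2 consensus matches, and like Nfkbia it did not pass the test.

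**Figure D3:**
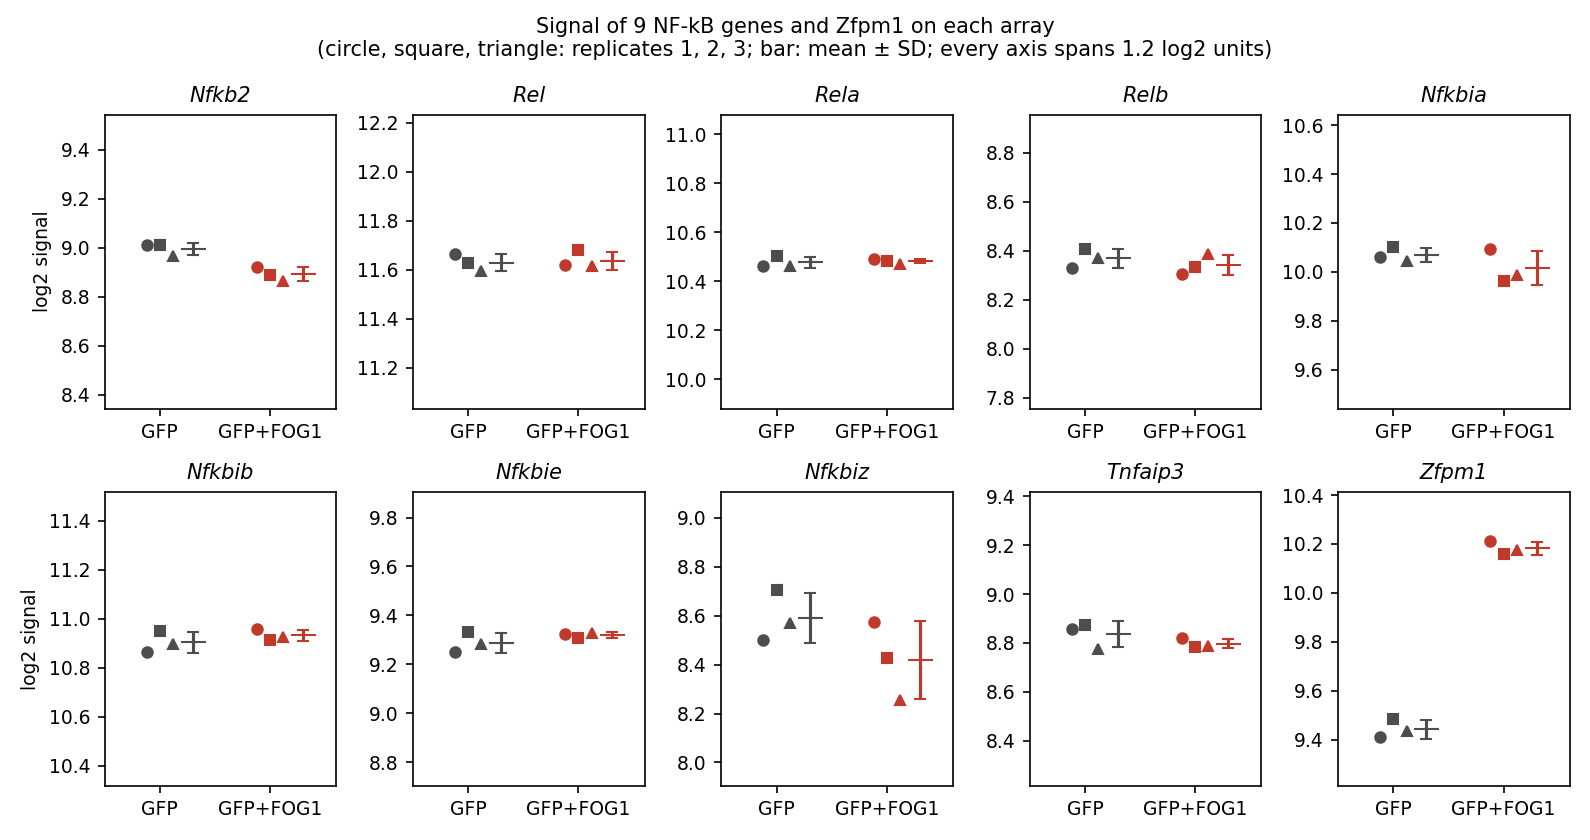
Log2 signal (vertical axes, each spanning 1.2 units around the gene's mean) of the 9 members and Zfpm1 on each array; circles, squares and triangles are replicates 1, 2 and 3, and the bar beside them is the mean ± SD of 3 arrays. Only Nfkb2 among the members has groups that do not overlap, by a small margin, while Zfpm1 moves from about 9.44 to 10.18.

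The members were also averaged by array. Over the 9 genes, each array's difference from the GFP mean was -0.017, 0.039 and -0.021 for GFP replicates 1, 2 and 3 and -0.006, -0.042 and -0.059 for GFP+FOG1 replicates 1, 2 and 3. The medians over the 9 genes were -0.013, 0.038 and -0.020 for GFP and -0.011, -0.037 and -0.014 for GFP+FOG1 replicates 1, 2 and 3. GFP replicate 2 stood highest and also had the highest array median, 7.04. Of the 9 genes, 6, 1 and 8 lay below the GFP mean on the GFP arrays and 5, 5 and 6 on the GFP+FOG1 arrays.

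The profiles of the feedback inhibitors were compared with those of the 100 other genes among the members and pathway lists, by the root mean square difference over the 6 arrays after centring each gene. Nearest to Nfkbia were the transcription factor genes Junb (0.031 log2 units) and Myc (0.033) and the Tnfaip3-interacting gene Tnip2 (0.035), where the median over the 100 was 0.087. Nearest to Tnfaip3 were the death receptor gene Fas (0.025) and the signalling genes Traf6 (0.026) and Irak1 (0.027), where the median was 0.070. The centred profiles of Nfkbia and Tnfaip3 themselves had root mean squares of 0.052 and 0.038. A gene with a flat profile would lie at those same distances, and the named genes lay nearer than that. They were picked as the nearest of 100 genes over only 6 arrays, so nearness here does not show a shared behaviour. Fas had a mean level of 5.25, below the overall median.

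The machinery between receptor and IkB was likewise without a call. None of the 11 measured IkB kinase and upstream kinase genes, 12 receptor adaptor genes, 12 ubiquitin editors or 12 other IkB family and degradation genes passed (limma adjusted p under 0.05), and 1, 2, 3 and 2 of them had an unadjusted p under 0.05, as did 12.5% of all probe sets. Their median log2 changes were -0.0021, -0.0056, 0.04 and 0.06. The kinase with the smallest p was Map3k8, which the Nfkb1 precursor holds bound, at -0.23 (limma adjusted p = 0.27), followed by the kinase partner Tab3 at 0.12, the IkB kinase relative Ikbke at -0.12 and Ikbkb, the catalytic IkB kinase of the canonical pathway, at -0.06. Among adaptors they were the paracaspase gene Malt1, of the complex that links the B-cell receptor to NF-kB, at 0.13, the ubiquitin ligase gene Birc3 at -0.15, the kinase gene Prkcb at -0.10 and the Toll-like receptor adaptor gene Myd88 at 0.10.

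Among ubiquitin editors the smallest p belonged to Tnip1, a binding partner of Tnfaip3. It read 7.88, 7.88 and 7.74 on the GFP arrays and 7.56, 7.52 and 7.60 on the GFP+FOG1 arrays, which is a difference of -0.27 that did not pass (SE 0.057; adjusted p = 0.19 by limma). The groups did not overlap. The deubiquitinase gene Otud7b (0.13), the ligase gene Itch, which works with Tnfaip3 (0.13), and Tnip3 (-0.11) followed. Tnip3 had a mean level of 4.81, below the overall median. Among the other IkB family and degradation genes, Nkap had a log2 change of 0.21, Bcl3, a nuclear IkB protein that binds the processed Nfkb1 and Nfkb2 products, -0.19, the ubiquitin ligase scaffold gene Cul1 0.13 and Btrc, which recognises phosphorylated IkB, 0.08, with limma adjusted p from 0.31 to 0.61.

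Of the 14 measured receptors that signal to NF-kB, 1 was called, against 0.224% of all probe sets. It was Tlr7, the endosomal receptor for single-stranded RNA, which read 7.58, 7.54 and 7.59 on the GFP arrays and 6.52, 6.66 and 6.91 on the GFP+FOG1 arrays. Its difference was -0.87 on the log2 scale (SE 0.098; adjusted p = 0.039 by limma). Without any of GFP replicates 1, 2 or 3 or GFP+FOG1 replicates 1 or 2 the adjusted p was 0.078 to 0.19, without GFP+FOG1 replicate 3 it was 0.023, and the log2 change was -0.98 to -0.79. The call was also lost after median centring (adjusted p = 0.053) and with the replicate number as a block (adjusted p = 0.15). The next were Cd79a (-0.41, adjusted p = 0.088) and Cd79b (-0.16), the signalling chains of the B-cell receptor, and Cd40 (-0.23), the receptor through which T cells activate B cells. In all, 6 of the 14 had an unadjusted p under 0.05 and all 6 were lower, as were 6.94% of all probe sets. The list's median was -0.08. This list was chosen with earlier results of these data known, so that share is no independent evidence of lower signals. A level at or above the overall median was reached by 11 of the 14. Tnfrsf13c, the receptor for the survival factor BAFF, had a log2 change of 0.07 (adjusted p = 0.54). Cd79a and Cd79b also stand among the B-lineage markers, 3 of 11 of which had an unadjusted p under 0.05, all 3 lower. Whether these differences play a part in those of the pathway was not tested.

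Among established NF-kB target genes most log2 changes were negative, but none passed. Of 34 measured targets 25 had a negative log2 change, against 53.8% of all probe sets, and the median was -0.11. A mean level at or above the overall median was reached by 24 of the 34, and not by Ccl3 (6.82). By limma 0 of 34 were called, and 12 had an unadjusted p under 0.05, of which 11 were lower and 1 higher, where 6.94% and 5.55% of all probe sets were. The smallest p belonged to Ccl3, an inflammatory chemokine, which read 6.98, 7.48 and 7.03 on the GFP arrays and 6.38, 6.43 and 6.62 on the GFP+FOG1 arrays (log2 change -0.69, SE 0.15, adjusted p = 0.19). It was followed by Cd40 (-0.23), the stress gene Gadd45b (-0.17) and the adhesion receptor gene Cd44 (-0.18), with adjusted p of 0.22 to 0.28. The target that was higher was Irf4, a regulator of plasma cell formation, at 0.19 (adjusted p = 0.29). The lists share Cd40, Traf1 and Birc3, so they are not independent of each other, and the target list was drawn up when a lower median of a similar list on these arrays was already known, so it is no independent evidence of that direction.

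**Figure D4:**
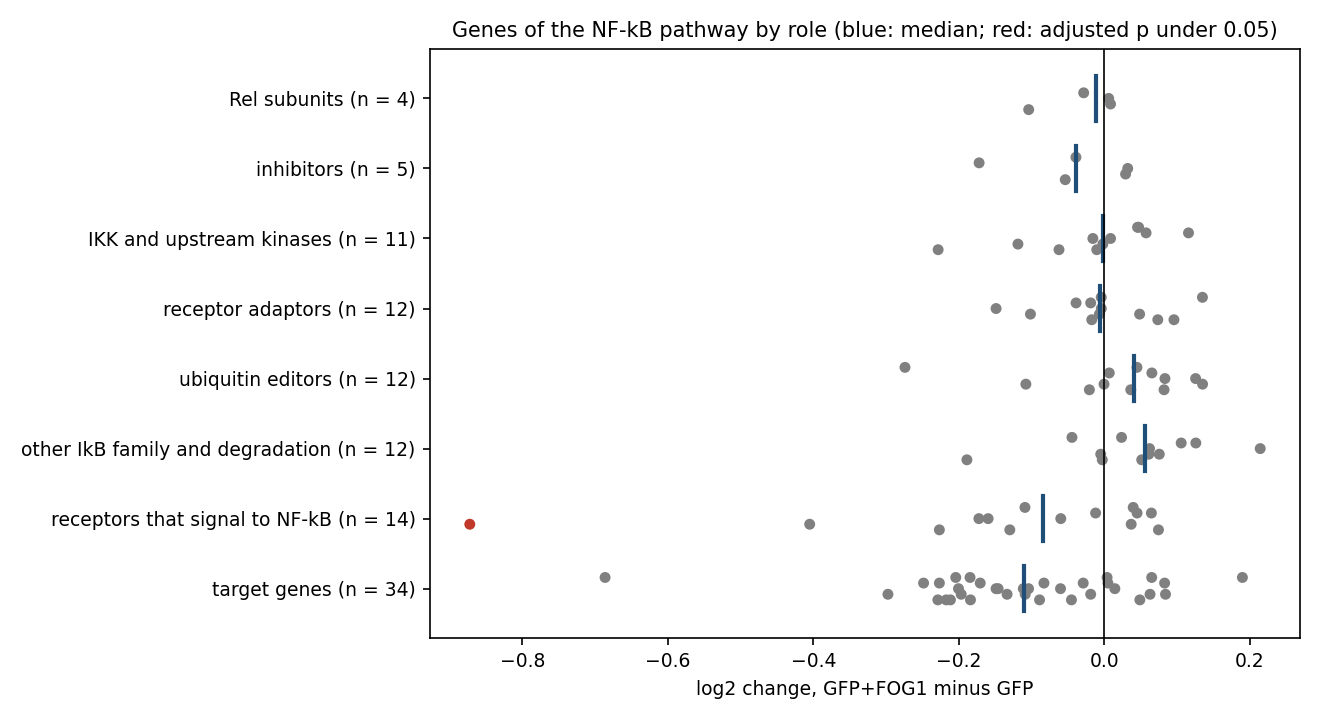
Log2 change (GFP+FOG1 minus GFP) of every measured gene of the NF-kB pathway, grouped by role, with the number of genes beside each group; each point is a gene, blue bars are medians and red marks an adjusted p under 0.05. The 9 members lie between -0.17 and 0.03, the receptors and targets extend further to the left, and Tlr7 is the single red point.

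The promoter motif was also read against the whole array. Of genes with both a promoter window and a 1-symbol probe set, 788 held a consensus match, and their median log2 change was -0.017, against -0.008 for the 14825 without one. The log2 change was below 0 for 56.9% of the 788 and 53.6% of the 14825. Limma called 0 of the 788 and 19 of the 14825 (0.128%), and an unadjusted p under 0.05 was reached by 11.0% and 10.8%. Among the measured targets with a window, 8 of 25 held a match, against 4.46% of all genes with a window. Their log2 changes were -0.30 for Ebi3, -0.25 for Irf1, -0.20 for Cxcl10 and Ltb, -0.18 for Ier3, 0.01 for Il6, 0.07 for Sod2 and 0.08 for Bcl2l1, and none passed. Of these, Ebi3, Cxcl10 and Il6 had mean levels of 6.91, 6.78 and 4.37, below the overall median. The 5 members with a match had log2 changes of -0.10 (Nfkb2), 0.01 (Rel), -0.05 (Nfkbia), 0.03 (Nfkbie) and -0.04 (Tnfaip3), and the 2 without had 0.01 (Rela) and 0.03 (Nfkbib).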

How the data were processed

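RNA was amplified with a whole-transcript kit, labelled with biotin and run on Affymetrix mouse gene arrays, per the labels' protocols. The authors deposited log2 signals of 34760 probe sets, made with the affy package per the submitters' processing notes. How background was corrected, arrays normalized and probes summarised is not given in the sources used here. That the scale is log2 was judged by the range, 3.12 to 14.07. Signals depend on a probe set's own probes, so the order of levels between genes is not reported as a result. The number of arrays limits the precision.

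Groups came from the sample titles, and gene names from the 21640 probe sets with 1 symbol in the platform annotation. The functions lmFit and eBayes of limma 3.58.1 (R 4.3.3) were run on all probe sets with no block, with Benjamini-Hochberg adjustment and a threshold of 0.05, and were tested on simulated data. A gene was taken at its probe set with the highest mean. The rule named the members, Zfpm1, up to 4 genes of each pathway list by unadjusted p, those called, the 3 brightest of each marker list and the 3 profiles nearest to Nfkbia and Tnfaip3. Tnfrsf13c, Irf4 and the targets with motifs were named after their values were seen. Members and lists were chosen with earlier results of these data known. Alternatives were other normalizations, filters, variance models, weights, a replicate block, averaged probe sets, a stricter threshold and leaving out each array. Plots used matplotlib 3.10.9 (Python 3.11.15).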

Additional observations from a re-analysis of the deposited data

How the results depend on the processing

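The count of members called was 0 under each alternative run for it. Over 14 alternatives no member's adjusted p fell below 0.25 (Nfkb2, with log2 changes of -0.12 to -0.08), and Nfkbiz ran from -0.25 to -0.09. The sign turned for Rel under quantile normalization (-0.0065) and for Rela (-0.015). Without 1 array Rel ran from -0.013 (without GFP+FOG1 replicate 2) to 0.026, also below 0 without GFP replicate 3 (-0.0076), and Rela from -0.00060 and -0.00049 (without GFP replicates 3 and 1) to 0.019. The median of the members moved from -0.028 to -0.0029 after median centring, and was -0.035 to -0.0092 without 1 array. The 78 probe sets called became 20 at an adjusted p under 0.01, by construction, and 17 to 38 without 1 array, where fewer samples are used. Arrays that share a number showed no common deviation from their group means (-0.068, 0.0084 and -0.040 as correlations), and for 0 of 6 was the own number the best match, so the numbers were not taken as pairs. With the replicate block 9 probe sets passed, and Zfpm1 (0.74), Tlr7 (-0.87) and Itgam (-1.11) missed the threshold, at adjusted p of 0.097, 0.15 and 0.088. Tlr7 also missed it after median centring (0.053). Cd79a passed without dim probe sets (0.043), with 1-symbol probe sets alone (0.036) and with a variance trend (0.027). The cause of these moves was not tested. No pseudocount applies to log2 values.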
